A study of Mus musculus with 4 samples.

Results

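Enzymes of glycolysis and phosphocreatine metabolism were followed through muscle cell differentiation: Ckm, Ckb, Eno1, Eno3, Pkm, Ldha, Aldoa, Pgam1, Pgam2 and Pfkm. They were taken by gene symbol and make up 10 of the 25827 genes listed for each library. Together they hold muscle isoforms (Ckm, Eno3, Pgam2 and Pfkm), the general isoforms of the same reactions (Ckb, Eno1 and Pgam1), and Pkm, Ldha and Aldoa, whose single genes serve muscle and other cells.

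Myogenic progenitors (MPs) are the descendants of the muscle stem cells that rebuild injured fibres. The MPs were sorted as alpha7-integrin positive cells lacking CD45, CD31 and Sca1 from the tibialis anterior of mice aged 12 weeks, on day 6 after injury with cardiotoxin, a venom component that kills fibres and spares stem cells. Single-cell RNA was counted as UMIs (unique molecular identifiers, 1 per captured RNA molecule) in 2 libraries of Pax7Cre controls and 2 of miR-501KO mice (Pax7Cre with a floxed miR-501 on the X chromosome), each pooled from 3 mice. Both groups carry the Pax7-driven Cre, which is not inducible and acts wherever Pax7 has been expressed, and the loss of the microRNA itself could not be read from these gene counts. Values given for 4 libraries follow the order Pax7Cre replicates 1 and 2, then miR-501KO replicates 1 and 2. Nothing separates the 3 pooled mice, so libraries are the replicates, and p-values between the 2 groups measure the spread between libraries. Tests between stages, and of stage changes between groups, measure the spread left once each library's own level is taken out.

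Creatine kinase passes phosphate between ATP and creatine and so buffers ATP during contraction. Phosphofructokinase commits glucose to glycolysis, aldolase splits the sugar, phosphoglycerate mutase and enolase act in its last steps, pyruvate kinase makes pyruvate and ATP, and lactate dehydrogenase turns pyruvate into lactate. Several of these steps are served by separate genes in adult muscle fibres and in most other tissues, and the change from the one to the other is a classical mark of muscle maturation.

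The 4 libraries held from 73665012 to 117527749 UMIs, and 10450 of 16519 barcodes had at least 5000 UMIs and 1000 genes and were kept, with median depths from 25254 to 34579 UMIs. At most 7 barcodes of a library were also found in another. Clusters of cells named macrophage-like, mural-like or Schwann-like from their markers were set apart, as were 788 barcodes of clusters that a single library made up to over 90%, nearly all of miR-501KO replicate 1. The other 8820 cells were called myogenic. They included clusters left unnamed whose best matching list was that of fibroblasts (109 cells, 10 of 10 markers raised) or of endothelial cells (21 cells, 8 of 8), and 64 of these cells entered the stages below. Stages were set by genes outside the 10 enzymes, after each cell had been thinned to 5000 UMIs. Pax7+ cells held Pax7, no Myog and fewer than 5 UMIs of 28 cell cycle genes. Cycling cells held no Myog and at least 5 such UMIs. Myog+ cells, which carry the RNA of the commitment factor myogenin, were divided at 5% of UMIs from 38 sarcomere genes into sarcomere-low and sarcomere-high cells. The 4 stages took 1851 Pax7+, 2598 cycling, 2448 Myog+ sarcomere-low and 203 Myog+ sarcomere-high cells, while 1686 myogenic cells met no gate and 34 had at least 5% sarcomere UMIs without Myog, and neither of these groups entered the stage tests. The libraries held 531, 408, 425 and 487 Pax7+ cells and 88, 20, 59 and 36 Myog+ sarcomere-high cells. Of the 2651 Myog+ cells, 83 lay between 4 and 6% sarcomere UMIs, and 679 held only 1 Myog UMI. Acta1, skeletal muscle actin and one of the 38 genes of the sarcomere gate, describes that gate: it averaged 136 CPM (UMIs per 1000000 UMIs of a library's stage) in Pax7+ cells and 15497 in Myog+ sarcomere-high cells.

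The sequences shown here are the 250 bases before the transcription starts of the 3 isoform pairs (RefSeq, mouse build GRCm38.p6, 5′ to 3′ on the gene's strand), because within each pair the members took different courses. Capitals mark every CANNTG, the E-box read by myogenic factors such as MyoD and myogenin, and every match to the consensus of MEF2, a factor that works with them in muscle. Both motifs read the same on either strand. For Eno1, which has 3 listed starts, the start furthest downstream is shown.

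Ckm, chr7:19410844-19411093, + strand: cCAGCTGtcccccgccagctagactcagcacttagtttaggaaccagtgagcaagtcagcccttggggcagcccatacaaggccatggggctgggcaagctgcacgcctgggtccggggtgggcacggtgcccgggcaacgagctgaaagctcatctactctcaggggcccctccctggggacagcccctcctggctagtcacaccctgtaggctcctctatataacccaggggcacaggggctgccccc

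Eno3, chr11:70656926-70657175, + strand: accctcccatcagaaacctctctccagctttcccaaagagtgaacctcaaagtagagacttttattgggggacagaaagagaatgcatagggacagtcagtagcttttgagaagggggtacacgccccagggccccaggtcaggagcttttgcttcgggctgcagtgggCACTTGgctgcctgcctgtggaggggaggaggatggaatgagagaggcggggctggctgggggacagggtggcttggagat

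Pgam2, chr11:5803797-5804046, - strand: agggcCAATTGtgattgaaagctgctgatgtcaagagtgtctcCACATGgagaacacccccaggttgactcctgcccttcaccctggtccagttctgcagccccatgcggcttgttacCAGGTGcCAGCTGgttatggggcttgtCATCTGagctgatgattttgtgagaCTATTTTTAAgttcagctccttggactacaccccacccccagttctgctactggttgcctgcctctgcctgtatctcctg

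Ckb, chr12:111672339-111672588, - strand: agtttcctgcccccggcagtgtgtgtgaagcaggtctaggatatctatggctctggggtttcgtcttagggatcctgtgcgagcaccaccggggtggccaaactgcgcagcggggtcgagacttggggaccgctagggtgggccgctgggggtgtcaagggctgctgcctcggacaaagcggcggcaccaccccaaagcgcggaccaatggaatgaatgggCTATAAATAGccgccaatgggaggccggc

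Eno1, chr4:150236974-150237223, + strand: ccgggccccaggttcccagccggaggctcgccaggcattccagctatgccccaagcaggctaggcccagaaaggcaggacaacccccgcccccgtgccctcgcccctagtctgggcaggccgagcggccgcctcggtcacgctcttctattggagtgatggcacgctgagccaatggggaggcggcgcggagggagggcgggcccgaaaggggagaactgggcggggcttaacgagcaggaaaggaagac

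Pgam1, chr19:41911621-41911870, + strand: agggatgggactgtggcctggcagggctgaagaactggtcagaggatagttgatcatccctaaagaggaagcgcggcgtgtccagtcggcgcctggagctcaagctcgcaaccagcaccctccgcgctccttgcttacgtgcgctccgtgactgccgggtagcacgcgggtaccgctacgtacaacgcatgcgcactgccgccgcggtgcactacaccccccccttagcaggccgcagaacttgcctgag

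Pgam2 had 5 E-boxes, from 245 to 100 bases before its start, and a MEF2 match from 80 to 71 bases before it. Ckm and Eno3 had 1 E-box each, and neither had a MEF2 match in this window. Ckb and Pgam1 had no E-box, while Ckb had a MEF2 match from 29 to 20 bases before its start that overlapped a TATAAA. The shown window of Eno1 had neither motif, and the window furthest upstream of its 3 had 2 E-boxes. Of all 32851 promoter windows of this length, 66.2% held an E-box and 2.92% a MEF2 match. These are matches of letters, and binding was not measured. Another motif, ACGTG on either strand, the core read by hypoxia-inducible factors, gave 5 matches in 1 of the 2 windows of Ldha. A CACGTG counts once on each strand, so these may be fewer sites. The motif was also found in windows of Pkm, Aldoa, Pgam1 and Pfkm, and in 16.6% of all windows.

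Muscle isoforms of the enzymes were many times higher in Myog+ sarcomere-high cells than in Pax7+ cells, by between 18.6 and 57.0 fold. Of the general isoforms, Ckb and Eno1 rose as well, and Pgam1 was the only one of the 10 enzymes that fell. Thus 9 of 10 members passed the test as higher and 1 as lower, where 32.0% of all 13256 genes tested passed as higher, 38.0% as lower and 70.0% in either direction. The median log2 fold change was 4.96 over the 4 muscle isoforms, 1.94 over the 3 general isoforms, 1.66 over Pkm, Ldha and Aldoa, and -0.12 over all genes tested. With RLE size factors in edgeR that median over all genes was -0.099. The median of DESeq2 was 0, but it was taken without the filter on low counts and so over other genes.

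Ckm (ENSMUSG00000030399), the muscle creatine kinase, stood at 22.0, 26.0, 48.2 and 70.3 CPM in the Pax7+ cells of the 4 libraries. In Myog+ sarcomere-high cells it reached 1261, 2153, 973 and 939. All 4 libraries were far higher in the later stage, with no overlap (log2 fold change 5.39, SE 0.34, edgeR adjusted p = 5.2e-11). Myog+ sarcomere-low cells, at 48.3, 37.4, 60.6 and 41.7, lay within the range of the Pax7+ cells, and the difference did not pass (log2 0.29, SE 0.31, edgeR adjusted p = 0.43); it was -1.32 with the sarcomere limit at 2% and -0.95 with gates on unthinned UMIs. Cycling cells were the lowest of the 4 stages, at 8.96 to 19.9, below the Pax7+ cells of the same library in 4 of 4 libraries (log2 -1.47, SE 0.33, edgeR adjusted p = 0.00085). This range of the cycling cells overlapped that of macrophage-like cells, at 10.4 to 21.5.

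Pgam2 (ENSMUSG00000020475), the muscle phosphoglycerate mutase, took nearly the same course and had the largest change of the 10. Its level was 7.81, 6.91, 11.2 and 15.7 CPM in the Pax7+ cells, and 351, 801, 410 and 339 in Myog+ sarcomere-high cells. The rise was 5.83 on the log2 scale (SE 0.27, edgeR adjusted p = 5.4e-13), and 175 of the 13256 genes rose more. In Myog+ sarcomere-low cells it was modestly higher than in Pax7+ cells in 4 of 4 libraries (log2 0.85, SE 0.31, edgeR adjusted p = 0.021), a call that was lost without Pax7Cre replicate 1 (adjusted p = 0.073) or without miR-501KO replicate 1 (0.092). The value turned to -0.18 with the sarcomere limit at 2% and to -0.17 with gates on unthinned UMIs. Cycling cells again were low (log2 -1.22, SE 0.37, edgeR adjusted p = 0.0075). Their 2.76 to 5.96 CPM overlapped the 3.20 to 8.26 of macrophage-like cells.

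Pfkm (ENSMUSG00000033065), the muscle phosphofructokinase, was scarce until the last stage. Pax7+ cells held 8.92, 9.61, 8.67 and 7.85 CPM, cycling cells 6.65 to 7.59 and Myog+ sarcomere-low cells 7.87 to 11.8. In Myog+ sarcomere-high cells it stood at 136, 137, 150 and 91.9, all above every earlier value (log2 4.22 against Pax7+ cells, SE 0.11, edgeR adjusted p = 2.2e-16). Neither cycling cells (log2 -0.24, adjusted p = 0.10) nor Myog+ sarcomere-low cells (log2 0.10, adjusted p = 0.50) passed the edgeR test against Pax7+ cells. The other phosphofructokinase subunits did not pass either at the late stage, with Pfkl, the liver type, at log2 -0.36 (adjusted p = 0.063) and Pfkp, the platelet type, at -0.17 (adjusted p = 0.34).

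Eno3 (ENSMUSG00000060600), the muscle enolase, differed from the other muscle isoforms in that it was already higher before Myog. Its level was 52.3, 47.9, 60.2 and 67.2 CPM in the Pax7+ cells, and 176, 130, 159 and 176 in cycling cells. These ranges do not overlap (log2 1.58, SE 0.17, edgeR adjusted p = 2.5e-07), and the change had the opposite sign to those of Ckm and Pgam2. Myog+ sarcomere-low cells stood at 153 to 223, which overlapped the cycling cells, and Myog+ sarcomere-high cells reached 964, 1454, 674 and 1017 (log2 4.52 against Pax7+ cells, SE 0.19, edgeR adjusted p = 1.5e-13).

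**Figure D1:**
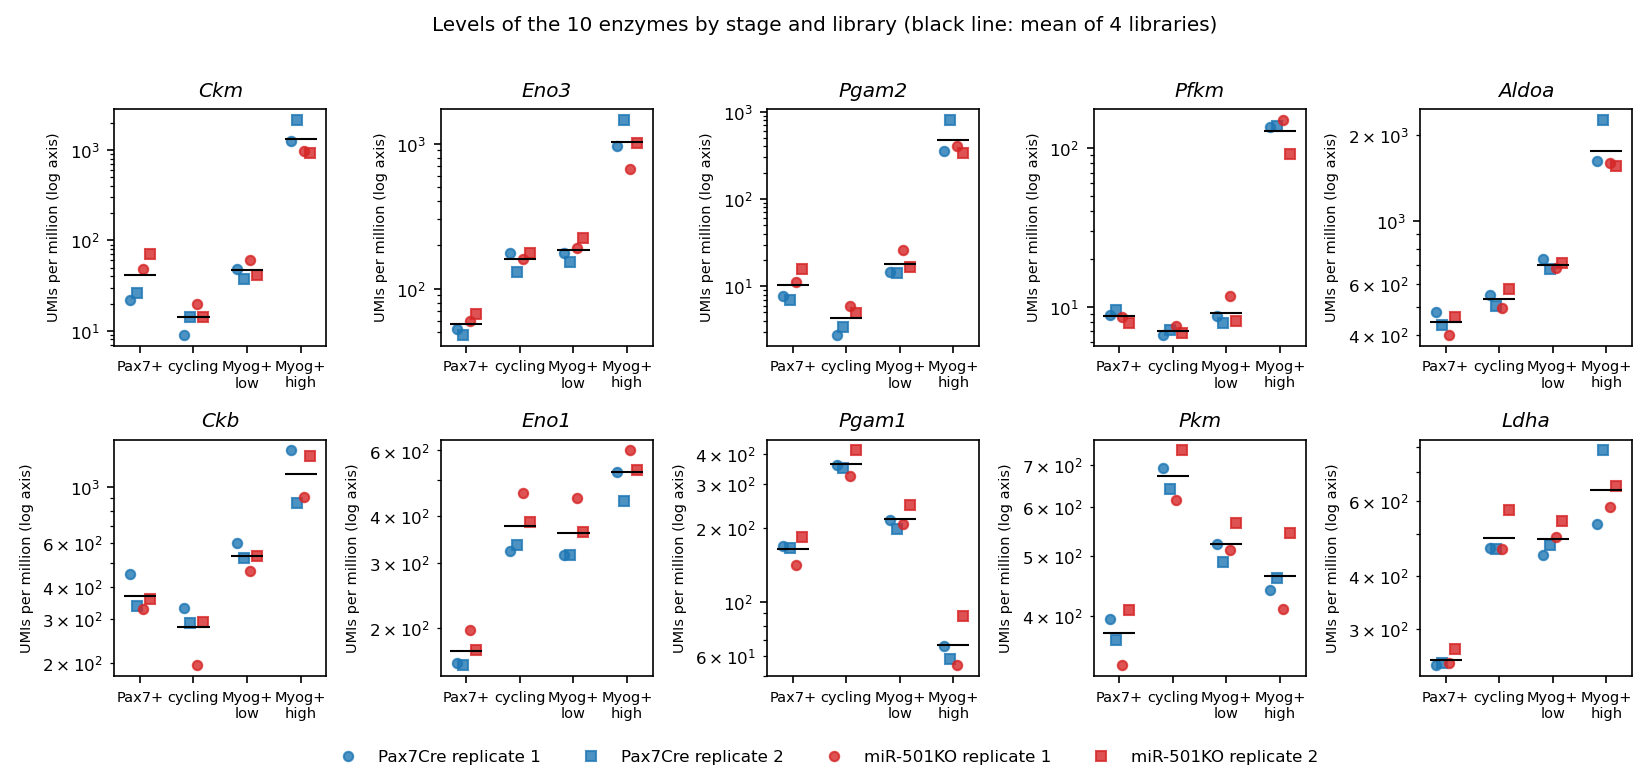
Level of each of the 10 enzymes in CPM (log axis, scaled for each gene) in Pax7+, cycling, Myog+ sarcomere-low and Myog+ sarcomere-high cells. Points are libraries, coloured by genotype, and black lines are means of 4 libraries; Ckm, Pgam2 and Pfkm stay low until the last stage, Eno3 rises in cycling cells, and Pgam1 is lowest in the last stage, where Ckb and Eno1 are highest.

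The general isoforms did not move together. Ckb (ENSMUSG00000001270), the creatine kinase best known from brain, was at 452, 338, 327 and 358 CPM in the Pax7+ cells. It stood higher in Myog+ sarcomere-low cells, at 464 to 599, and higher again in Myog+ sarcomere-high cells, at 1390, 859, 906 and 1321. The rise from Pax7+ to the last stage was 1.94 on the log2 scale (SE 0.09, edgeR adjusted p = 7.3e-13), so creatine kinase RNA of both kinds increased. Outside the myogenic cells Ckb was highest in the Schwann-like cells, at 737 to 821.

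Eno1 (ENSMUSG00000063524), the general enolase, also rose. Its levels in Pax7+ cells were 161, 159, 198 and 175 CPM, in cycling cells 322 to 461, in Myog+ sarcomere-low cells 314 to 446 and in Myog+ sarcomere-high cells 526, 438, 600 and 533. The last stage was above Pax7+ cells in 4 of 4 libraries (log2 1.95, SE 0.06, edgeR adjusted p = 2.3e-15), and it overlapped the cycling cells. Eno1b, a near-identical copy with 2110 UMIs in all kept cells against 105458 of Eno1, can share reads with it, so the split between those 2 is uncertain.

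Pgam1 (ENSMUSG00000011752), the general phosphoglycerate mutase, gave way to its muscle counterpart. Pax7+ cells held 169, 165, 140 and 183 CPM, and cycling cells, where it was highest, held 361, 350, 324 and 412. In Myog+ sarcomere-high cells only 66.2, 58.3, 55.1 and 87.6 were left, below every value of the other 3 stages. The fall was 0.96 on the log2 scale from Pax7+ cells (log2 fold change -0.96, SE 0.07, edgeR adjusted p = 1.1e-09) and larger from Myog+ sarcomere-low cells (-1.42, SE 0.07, adjusted p = 5.5e-12). These fitted changes are smaller than those of the levels, because the fit scales each sum by its TMM factor as well as by its total.

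Aldoa, Ldha and Pkm served all stages at high levels. Aldoa (ENSMUSG00000030695), the main aldolase of muscle and many other tissues, rose from 399 to 480 CPM in Pax7+ cells to 1556 to 2251 in Myog+ sarcomere-high cells (log2 2.33, SE 0.09, edgeR adjusted p = 1.1e-13). Ldha (ENSMUSG00000063229), the lactate dehydrogenase chain typical of glycolytic cells, rose from 246 to 269 in Pax7+ cells to 462 to 569 in cycling cells and 529 to 787 in Myog+ sarcomere-high cells (log2 1.66 for the last against Pax7+ cells, SE 0.08, edgeR adjusted p = 2.3e-12). Its partner Ldhb, the heart type chain, had 25.9 to 33.5 CPM in Pax7+ cells and did not pass at the last stage (log2 0.08, adjusted p = 0.63).

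Pkm (ENSMUSG00000032294), the pyruvate kinase of muscle and dividing cells, was highest in cycling cells, at 616 to 740 CPM. Pax7+ cells held 333 to 410, Myog+ sarcomere-low cells 490 to 565 and Myog+ sarcomere-high cells 412 to 544. Cycling cells were above Pax7+ cells by 0.91 on the log2 scale (SE 0.05, edgeR adjusted p = 3.2e-11), and the last stage by 0.64 (SE 0.05, adjusted p = 4.5e-09). The step from sarcomere-low to sarcomere-high cells did not pass (log2 0.11, SE 0.05, adjusted p = 0.096), and it did with RLE size factors (log2 0.16, adjusted p = 0.020) and with DESeq2 (log2 0.16, adjusted p = 0.015). In CPM, Pkm was instead lower in sarcomere-high cells in each library, at 441, 462, 412 and 544 against 522, 490, 512 and 565. The sign of this step thus depends on the factors that scale each sum beside its total. The M1 and M2 splice forms of Pkm share their 3′ end and were counted as 1 gene. Transcripts of Aldoc, a brain aldolase, Pklr, the pyruvate kinase of liver and red cells, and Ckmt1, the ubiquitous mitochondrial creatine kinase, averaged at most 0.08 CPM in any of the 4 stages.

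**Figure D2:**
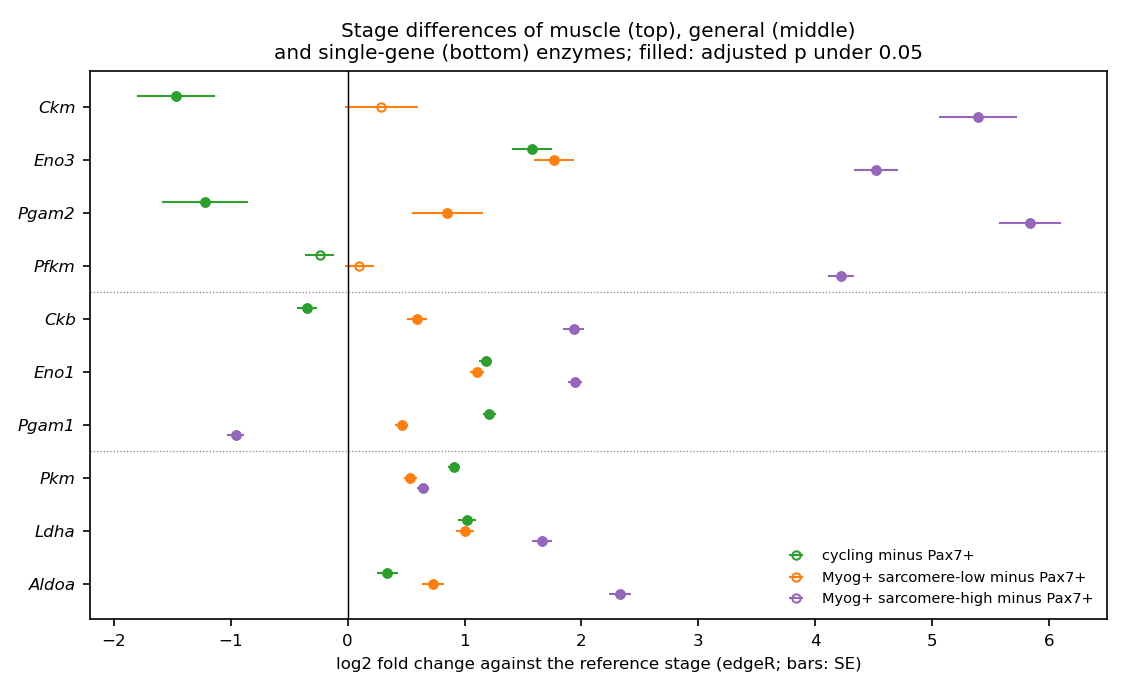
Log2 fold changes (edgeR, bars are SE) of the 10 enzymes in cycling, Myog+ sarcomere-low and Myog+ sarcomere-high cells, each against Pax7+ cells in 4 libraries; filled points have an adjusted p under 0.05. In the last stage the muscle isoforms lie between 4.22 and 5.83, Ckb and Eno1 near 1.94, and Pgam1 at -0.96.

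Cycling cells and early committed cells thus carried a different enzyme set from the late cells. In cycling against Pax7+ cells, 6 of 10 members were higher (Eno3, Pgam1, Eno1, Ldha, Pkm and Aldoa) and 3 lower (Ckm, Pgam2 and Ckb), beside 31.1% and 31.6% of all genes tested (62.7% in either direction). The value of Ckb turned to 0.42 with gates on unthinned UMIs. In Myog+ sarcomere-low against Pax7+ cells 8 of 10 were higher and none lower, beside 32.4% and 33.1% of all genes (65.5% in either direction), with log2 changes from 0.46 for Pgam1 to 1.77 for Eno3 among those that passed. Of the Myog+ sarcomere-low cells, 37.3% held at least 5 cell cycle UMIs, against 1.48% of the sarcomere-high cells, and the part of this in the result was not tested. From sarcomere-low to sarcomere-high cells 8 members were higher and 1, Pgam1, lower, beside 27.0% and 34.2% of all genes (61.2% in either direction), and Ckm rose by 5.10, Pgam2 by 4.98, Pfkm by 4.12 and Eno3 by 2.75 on the log2 scale.

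The share of the muscle isoform within each pair puts these changes on 1 scale. In UMIs of 3′ libraries each molecule counts once whatever its length, though the 2 genes of a pair may be captured unequally. Pgam2 made up 4.42, 4.03, 7.37 and 7.89% of the pair's UMIs in the Pax7+ cells, and 84.1, 93.2, 88.1 and 79.5% in their Myog+ sarcomere-high cells. Enolase started with more of the muscle form, at 23.1 to 27.8% in Pax7+ cells, and ended with less, at 64.7, 76.8, 52.9 and 65.6%. Ckm was 4.64, 7.16, 12.8 and 16.4% of creatine kinase UMIs in Pax7+ cells and 47.6, 71.5, 51.8 and 41.6% in Myog+ sarcomere-high cells, where Ckb made up the rest.

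The gain in muscle share between these stages was 80.3 percentage points ± 7.19 (SD, n = 4) for phosphoglycerate mutase, 42.8 ± 16.2 for creatine kinase and 40.3 ± 10.0 for enolase, and each was present in 4 of 4 libraries. The exact two-sided permutation test over 4 pairs gave p = 0.13 for each, which is the smallest p that 4 pairs allow. The Myog+ sarcomere-low cells had shares of 7.67% ± 2.38 for phosphoglycerate mutase, 8.24% ± 2.24 for creatine kinase and 34.1% ± 3.62 for enolase. Against Pax7+ cells the enolase share alone was higher in 4 of 4 libraries, by 9.42 points ± 2.12 (exact permutation p = 0.13, the smallest possible).

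Single cells of the last stage mostly held both forms. Ckm exceeded Ckb in 52.3, 70.0, 62.7 and 47.2% of the Myog+ sarcomere-high cells of the 4 libraries. Pgam2 exceeded Pgam1 in 79.5, 85, 86.4 and 69.4% of them, and Eno3 exceeded Eno1 in 59.1, 55.0, 30.5 and 66.7%. Their median depth was 54934, 78566, 33551 and 61660 UMIs, against 22513 to 28566 in Pax7+ cells, so these shares are given for this stage alone.

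When all myogenic cells were ordered by their share of sarcomere UMIs instead, without regard to Myog, the pairs turned over at different points. These ranges were set after the data had been seen and carry no test. Up to 1% sarcomere UMIs, Pgam2 made up at most 4.33% and Ckm at most 5.69% of the pair's summed UMIs, while Eno3 was at 28.7% below 0.5% and at 37.0% between 0.5 and 1%. Between 2 and 5% (279 cells), the summed shares were 39.2% for Pgam2, 20.5% for Ckm and 35.0% for Eno3. Between 5 and 10% (158 cells), they were 78.9, 43.7 and 56.8%, and between 10 and 20% (52 cells, 7 to 22 a library) 93.0, 62.2 and 72.4%. In each of the 4 libraries Pgam2 had the largest share of the 3 from 5% upwards to 20%. Ckb itself climbed from 336 CPM below 0.5% to 1235 between 5 and 10% and then stood at 1052 between 10 and 20%, while Pgam1 went from 276 down to 75.8 and 44.6.

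**Figure D3:**
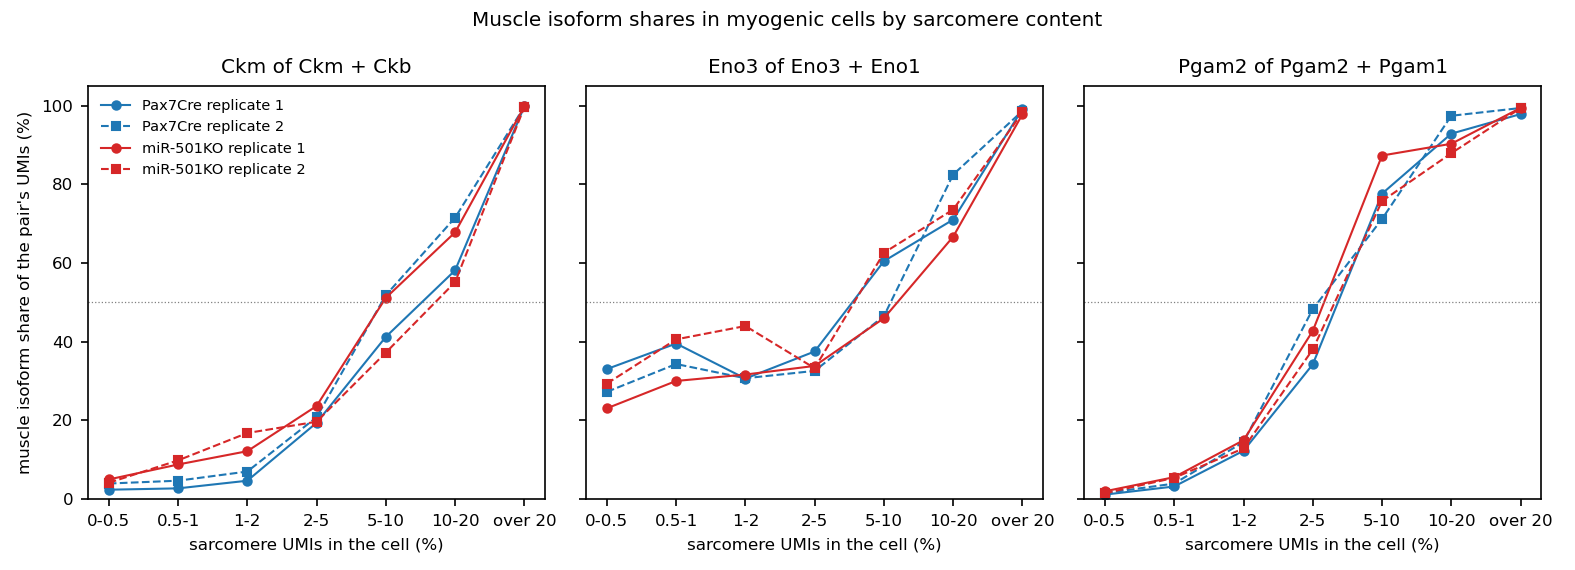
Share of the muscle isoform in the pair's UMIs (%) against the share of sarcomere UMIs in the cell (%, 7 ranges) for creatine kinase, enolase and phosphoglycerate mutase in myogenic cells; each line is a library and the dotted line marks 50%. Pgam2 rises most steeply, from a summed 39.2% at 2 to 5% sarcomere UMIs to 78.9% at 5 to 10%, while Ckm reaches 43.7% in that range. Eno3 starts higher, at 28.7% below 0.5% sarcomere UMIs and 37.0% at 0.5 to 1%.

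Above 20% sarcomere UMIs lay 29 cells in which Ckb and Pgam1 were low, at 33.2 and 23.1 CPM over the 4 libraries summed, while Eno1 stood at 132. There Ckm stood at 14249 CPM, Eno3 at 8071 and Pgam2 at 3574, and the muscle shares were 99.8, 98.4 and 99.4%. Only 6.90% of these cells held Myog. Cells with at least 5% sarcomere UMIs and no Myog, which overlap with these, numbered 3, 17, 9 and 5 in the 4 libraries and took no part in the stage tests. Their median mitochondrial share was 0.084%, against 5.44% in Myog+ sarcomere-high cells, and they held Ckb at 46.5 and Pgam1 at 22.8 CPM, below the levels of every stage.

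Across the 16 stage sums the course of Ckm was most like that of Pgam2 (Pearson r of 0.99 on log2 levels over 5777 genes with a mean of at least 20 CPM), then Myl1, Cox6a2, Smpx and Tnnc2. Pgam2 was most like Myl1, Cox6a2, Ckm, Mylpf and Trdn. Eno3 was instead most like Uqcrb, Smyd3, Tpm1, Grpel1 and Tubb6, and its r with Ckm was 0.83. The general isoforms had other neighbours again: Ckb was most like Sil1, Creld1, Tnnt1, Srp14 and Saysd1, Eno1 like Cbx5, Hspa4, Acat1, Nap1l4 and Tcp1, and Ldha like Idh3a, Ndufb6, Higd1a, Cycs and Mrps22. Pgam1 ran against Ckm (r = -0.93). The sums share libraries and cells of 4 fixed stages, so these values only describe the order of likeness. Myog+ cells were split into stages by their sarcomere UMIs, so a high likeness to sarcomere genes such as Myl1 and Tnnc2 is partly built in.

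Other genes of glucose and phosphocreatine metabolism changed in both directions at the last stage. Of 54 such genes in 6 lists, all were listed and 48 had enough UMIs to be tested; 27 were higher and 12 lower in Myog+ sarcomere-high than in Pax7+ cells, beside 32.0% and 38.0% of all genes tested, with a median log2 fold change of 0.79. Of 8 phosphocreatine and adenylate genes tested, 6 were higher and 1 lower. They were led by Gatm, which begins creatine synthesis, at 10.8 to 12.6 CPM in Pax7+ cells and 464 to 628 in the late cells (log2 5.93, edgeR adjusted p = 3.1e-20). Ampd1, the AMP deaminase of muscle, rose by 4.09 and Ak1, the cytosolic adenylate kinase, by 3.52 on the log2 scale. The sarcomeric mitochondrial creatine kinase Ckmt2 passed with log2 2.44 (SE 0.51, higher in 3 of 4 libraries) but was low, at 6.10 CPM over the late cells of the 4 libraries summed.

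Of 13 glycogen genes 9 were higher and 2 lower. Gys1, glycogen synthase, rose by 3.59 on the log2 scale. Pygm, the muscle glycogen phosphorylase, rose from 12.7 to 14.4 CPM in Pax7+ cells to 99.6, 178, 128 and 70.0 in the late cells of the 4 libraries (log2 3.45, edgeR adjusted p = 4.6e-13), while Pygb, the brain phosphorylase, went from 6.54 to 7.78 down to at most 1.17 (log2 -3.06, adjusted p = 2.0e-07).

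Of 6 glucose uptake and phosphorylation genes 2 were higher and 4 lower. Slc2a4, the insulin-responsive transporter GLUT4, was higher (log2 3.78, adjusted p = 7.0e-09), and Slc2a3, another transporter (log2 -2.50), and Hk1, a hexokinase (-2.31), were lower. Among 5 lower glycolysis genes 4 were higher and 1 lower, with Tpi1, triosephosphate isomerase, at log2 3.05, Gapdh at 1.15 and Eno2, the neuronal enolase, at -2.05 from a level of 2.40 CPM in Pax7+ cells. Of 10 lactate and pyruvate genes 6 were higher and 2 lower, led by the lactate exporter Slc16a3 (log2 2.38), by Pdha1 of pyruvate dehydrogenase (1.72) and by the mitochondrial pyruvate carrier Mpc1 (1.24). In the list of phosphofructokinase and aldolase isoforms none of 6 was higher and 2 were lower, Pfkfb3 (log2 -2.74) and Pfkfb4 (-0.86), which set the level of the allosteric activator of phosphofructokinase.

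**Figure D4:**
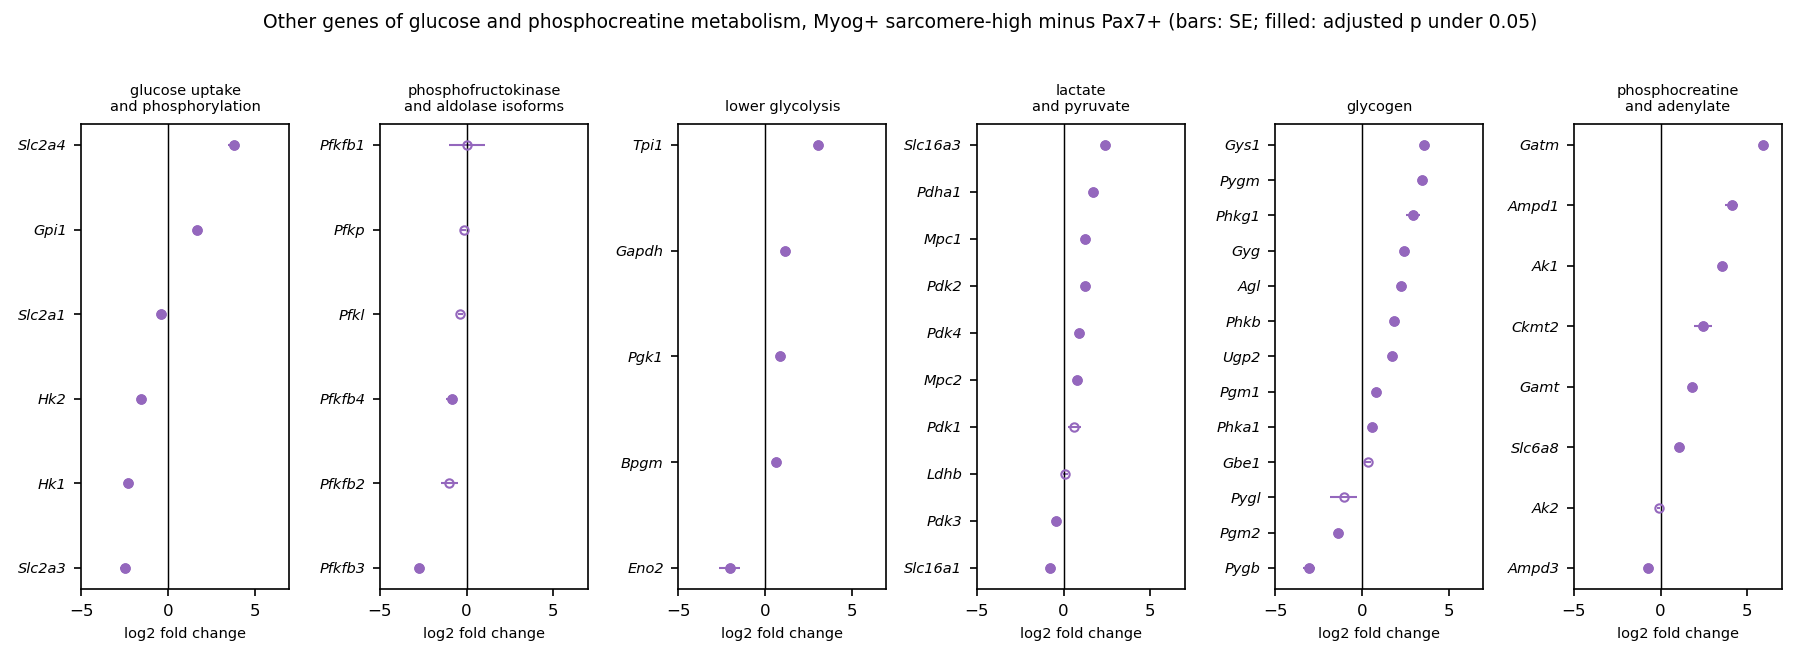
Log2 fold changes (edgeR, bars are SE) in Myog+ sarcomere-high against Pax7+ cells for the 48 tested genes of 6 lists of glucose and phosphocreatine metabolism; filled points have an adjusted p under 0.05. Gatm at 5.93, Pygm at 3.45 and Tpi1 at 3.05 lie on the right, and Pygb at -3.06 on the left.

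Next, the enzymes were compared between genotypes. Over all kept cells none of the 10 members passed the test, where 0% of 15725 genes did in edgeR (440 at an unadjusted p under 0.05, and 11 adjusted calls in DESeq2). Their log2 differences, miR-501KO minus Pax7Cre, lay between -0.39 for Pgam2 and 0.28 for Eno1. Ckm stood at 77.2, 301, 228 and 87.9 CPM in the 4 libraries, so that the 2 libraries of each genotype differed more than the genotypes. In Pax7Cre replicate 2, 17 Myog- sarcomere-high cells held 16296 of the 21637 Ckm UMIs, and in miR-501KO replicate 1, 9 such cells held 9376 of 19359.

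In Pax7+ cells Ckm was higher in miR-501KO than in Pax7Cre, at 48.2 and 70.3 against 22.0 and 26.0 CPM (log2 1.25, SE 0.18, edgeR adjusted p = 0.018). It was 1 of 9 genes called, all of them higher, which is 0.0722% of 12463 tested. The others, named after their values were seen, were Tnnc2, Tnni2, Tnnt3, Tcap, Mb, Pvalb, Cxcl3 and Nr4a1, and the first 6 of these encode proteins of the contractile apparatus or the cytosol of fibres. Within run 1 the levels were 22.0 and 48.2, and within run 2 they were 26.0 and 70.3, so both runs had the same direction. With the run as a replicate block 63 genes were called and Ckm had a log2 difference of 1.22 (adjusted p = 3.4e-07). None of the other 9 members passed, and Pgam2, the nearest, stood at 11.2 and 15.7 in miR-501KO against 7.81 and 6.91 in Pax7Cre (log2 0.81, SE 0.21, adjusted p = 0.34).

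The difference in Ckm became smaller when sarcomere-rich cells were left out. Pax7+ cells with at least 1% sarcomere UMIs made up 0.188 and 0.735% in the Pax7Cre libraries, against 1.65 and 3.29% in those of miR-501KO. Without them, a setting added after the data had been seen, the difference was 0.66 on the log2 scale (SE 0.20) and did not pass (edgeR adjusted p = 0.68), and no gene was called (474 at an unadjusted p under 0.05). This setting removes cells by their sarcomere UMIs, so the loss of calls for sarcomere genes was partly built in and is no separate evidence. Ckm is not a gene of that limit, but its level rose with the sarcomere share across myogenic cells. The call was also lost without the filter on low counts (log2 1.24, adjusted p = 0.065) and with stages gated on unthinned UMIs (1.08, adjusted p = 0.11), and with the other settings run the adjusted p lay between 3.8e-16 and 0.025. In miR-501KO replicate 1, the highest 1% of Pax7+ cells held 41.4% of the Ckm UMIs, against 18.6 to 19.3% in the other 3 libraries. Without the highest 1% of Pax7+ cells, Ckm stood at 17.8, 21.2, 28.3 and 57.1 CPM in the 4 libraries, so the genotypes did not overlap. Macrophage-like cells, which should lack Ckm, also held it, at 10.9, 12.9, 10.4 and 21.5 CPM in the 4 libraries. The mural-like cells held 4.84, 8.97, 12.0 and 3.43, and those called Schwann-like had 12.9, 32.0, 6.98 and 30.5. The Pax7+ cells of both Pax7Cre libraries were within the range of the Schwann-like cells. For each Acta1 UMI, Pax7+ cells held 0.23, 0.28, 0.30 and 0.37 Ckm UMIs, macrophage-like cells 0.11, 0.18, 0.13 and 0.32, and Myog+ sarcomere-high cells 0.084, 0.11, 0.073 and 0.068. The Myog- sarcomere-high cells held 0.12, 0.22, 0.24 and 0.22. The part of free or fibre-derived RNA in the difference was not tested.

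**Figure D5:**
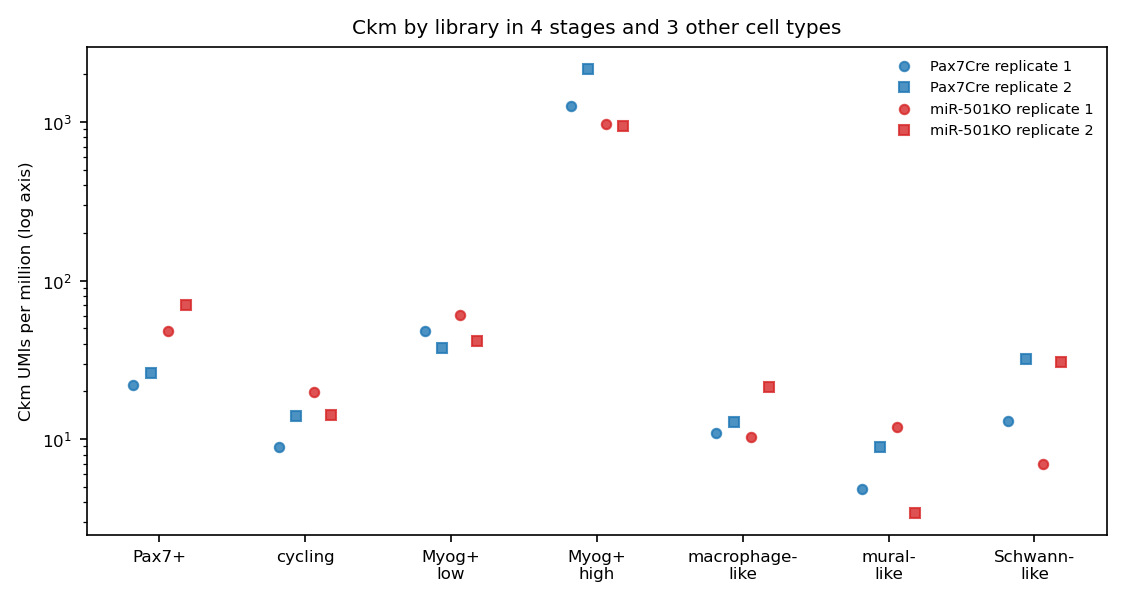
Ckm level in CPM (log axis) in the 4 stages and in macrophage-like, mural-like and Schwann-like cells; each point is a library, coloured by genotype. In Pax7+ cells both miR-501KO libraries (48.2 and 70.3) lie above both Pax7Cre libraries (22.0 and 26.0), and in Myog+ sarcomere-high cells both lie below them.

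In Myog+ sarcomere-high cells the order of the genotypes was the other way round for Ckm, with both Pax7Cre libraries (1261 and 2153 CPM) above both miR-501KO libraries (973 and 939 CPM). This difference alone did not pass (log2 -0.87, SE 0.25, edgeR adjusted p = 1.0), and neither did that of Eno3 (-0.54), Pgam2 (-0.64) or any other member, the rest lying between -0.33 for Aldoa and 0.20 for Eno1. None of 8936 genes was called by edgeR (335 at an unadjusted p under 0.05, and 6 adjusted calls in DESeq2), so the share called was 0%. The difference in Ckm passed without the filter on low counts (log2 -0.87, adjusted p = 0.0022) and without Pax7Cre replicate 1 (-1.20, adjusted p = 0.0030), while it was -0.45 without Pax7Cre replicate 2, which held 20 of the 203 cells and the highest Ckm.

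The stage change of Ckm itself differed between genotypes. From Pax7+ to Myog+ sarcomere-high cells it rose less in miR-501KO, by 2.07 on the log2 scale (interaction -2.07, SE 0.21, edgeR adjusted p = 0.0022). Ckm was 1 of 23 genes with such a difference, 0.183% of 12537 tested, all of them with a smaller rise or larger fall in miR-501KO. The interaction of Pgam2 was -1.36 (SE 0.35, adjusted p = 0.31) and that of Eno3 -0.86 (SE 0.22, adjusted p = 0.28), and those of the other 7 members lay between -0.19 and 0.22 with adjusted p of 1.0. The call for Ckm was lost without the sarcomere-rich Pax7+ cells (-1.46, adjusted p = 0.062), without the library block (-2.14, adjusted p = 0.068) and with gates on unthinned UMIs (-1.39, adjusted p = 1.0). Leaving out each library in turn gave values from -2.37 to -1.76 for Ckm, in fits where 1 genotype had a single library. For Pgam2 or Eno3 the interaction passed in some of the alternative settings, which include such fits.

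The muscle shares of the isoform pairs were compared between genotypes too. In Pax7+ cells Ckm made up 14.6% of creatine kinase UMIs in miR-501KO on average and 5.90% in Pax7Cre, and Pgam2 7.63% against 4.22% of its pair, with no overlap between the libraries in either case (exact permutation p = 0.33 for both, the smallest that 2 against 2 allow). In cycling cells the shares also did not overlap, at 6.93% against 3.64% for Ckm and 1.5% against 0.86% for Pgam2 (exact permutation p = 0.33 for both). There, 5 of the 479 cycling cells of miR-501KO replicate 1 held 53.0% of its Ckm UMIs. Without the highest 1% of cycling cells, Ckm stood at 6.60, 11.9, 9.36 and 9.42 CPM in the 4 libraries, so the genotypes overlapped. Pgam2 did not overlap, at 2.0, 2.8, 3.5 and 3.5. In Pax7+ cells the enolase share was 25.6% against 23.8% (exact permutation p = 0.667). In Myog+ sarcomere-high cells the libraries of the genotypes overlapped in all 3 pairs (exact permutation p = 0.667 for each).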

How the data were processed

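Droplet single-cell libraries (10x Genomics 3′ kits) were sequenced for 2 Pax7Cre and 2 miR-501KO samples. The authors deposited raw UMI counts per gene and barcode, with no normalization; per the file headers they were made with Cell Ranger 6.0.2, and the submitters' processing notes name Cell Ranger, Seurat and the mouse build GRCm39. The study names another version of Cell Ranger. The barcode and gene lists deposited with them only label the count matrices.

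The 10 members and all gene lists were chosen with earlier results of these data known. Barcodes had to reach 5000 UMIs and 1000 genes. Clusters came from the 2000 most variable genes less the 8 that were members or pathway genes (30 principal components, 15 neighbours, Leiden resolution 0.5, scanpy 1.11.5), were named by marker lists (at least 3 markers raised 1.5 times and found in 10% of cells), and served only to set other cell types and clusters of 1 library apart. Scrublet marked 28 cells (0.268%), too few to have worked, so doublets were kept; removing the 5% with the highest scores was an alternative.

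UMIs were summed per library and stage and scaled to CPM for levels; Aldoa sums 2 listed genes, and its test used the main one. edgeR 4.0.16 (TMM, filterByExpr, quasi-likelihood test, Benjamini-Hochberg adjustment over all genes, limma 3.58.1, R 4.3.3) tested 16 stage sums with library as a block, genotype on 4 sums, and the interaction on 8 sums with library as a block. SE is the log2 fold change over the square root of its F. A gene with an adjusted p under 0.05 was called. The tests were tested on simulated data with 200 genes changed.

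Replicate numbers mark the run, which pairs the libraries per the labels. Across genes the run difference correlated between genotypes at -0.04 for all kept cells, -0.32 for Pax7+ cells and -0.02 for Myog+ sarcomere-high cells. The 2 libraries of a genotype were no duplicates (chi-square over its degrees of freedom 70.2 for Pax7Cre and 67.2 for miR-501KO). Alternatives were RLE size factors, DESeq2 1.42.0, no low-count filter, run and library blocks, other gates, cell filters and leaving out each library. Named genes were the members, 9 partner isoforms (1 is not reported here), up to 3 called pathway genes per list with the largest change in 4 of 4 libraries, and the 5 genes most like 6 members. Genome coordinates of the genes in the build of the files were not used here, and promoter windows come from RefSeq (GRCm38.p6).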

Additional observations from a re-analysis of the deposited data

Results flagged for a closer look

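The stage change of Ckm from Pax7+ to Myog+ sarcomere-high cells differed between the genotypes by a test of the difference itself, with an interaction of -2.07 on the log2 scale (edgeR adjusted p = 0.0022). In the main fit Ckm was the only one of the 10 members with such a call. Pgam2 or Eno3 passed in some of the alternative settings, which include fits without 1 library. Its value was -1.46 (adjusted p = 0.062) without Pax7+ cells of at least 1% sarcomere UMIs.

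A cluster of 659 barcodes that all came from miR-501KO replicate 1, and that took no part in the stages, held Ckm at 341 CPM. That is above the 37.7, 56.4, 75.4 and 109 CPM of myogenic cells with 1 to 2% sarcomere UMIs in the 4 libraries. It is also above the 77.2 and 301 over all kept cells of the Pax7Cre libraries. The level was far above that of the macrophage-like cells of the same library (10.4), although the cluster raised 10 of 13 macrophage markers. Its median depth was 19689 UMIs and its median sarcomere share 1.20%. Myog stood at 1056 and Acta1 at 1883 CPM, and 99.5% of the barcodes held Ckm; the cell type was not settled. With clusters of a single library kept, the Myog+ sarcomere-low cells of this library numbered 1254 in place of 476. With 2 libraries a genotype, no search for single outlying libraries was made.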

How the results depend on the processing

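Of the alternative values for single members, 730 kept direction and side of the threshold, 22 newly passed, 15 no longer passed and 11 turned. All 160 for Myog+ sarcomere-high against Pax7+ cells kept direction and side of the threshold. Early changes turned: against Pax7+ cells, Ckm of Myog+ sarcomere-low cells was -1.32 with the sarcomere limit at 2% and -0.95 with unthinned gates, Pgam2 -0.18 and -0.17, and Pfkm -0.25 at 2%; the limit decides which cells are called low. Pkm between Myog+ stages was -0.0066 at 2%, and Ckb in cycling cells was 0.42 with unthinned gates, where 4272 genes were called in place of 8305. The muscle share gain of phosphoglycerate mutase was 66.8 points at 2%.

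Genotype counts moved most. In Pax7+ cells, 9 calls became 5 with RLE, 3 without the filter, 5 with single-library clusters kept, 17 without the highest Scrublet scores, 0 without sarcomere-rich cells, 63 with the replicate block and 15 with crossed pairing. In Myog+ sarcomere-high cells, 0 became 102 without the filter, 6 with DESeq2 and 1 at a 10% limit, and over all kept cells 11 with DESeq2. The interaction count of 23 became 136 without the filter, 1 without the library block, 8 and 70 at limits of 2 and 10%, 43 with 2 Myog UMIs, 0 with unthinned gates and 9 without sarcomere-rich cells. The replicate block changed no other call. Among the settings with 2 libraries a genotype, the interaction call of Ckm was kept in all but those named beside it. Leaving out sarcomere-rich cells lowers sarcomere genes by construction, so the counts of that setting are no independent test of such genes. The cause of these moves was not tested.

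Leaving out 1 library gave from 0 to 3 calls over all kept cells, 23 to 146 in Pax7+ cells (fewest without Pax7Cre replicate 1, most without miR-501KO replicate 2), 16 to 104 in Myog+ sarcomere-high cells (most without Pax7Cre replicate 1, fewest without miR-501KO replicate 1) and 63 to 190 for the interaction (most without Pax7Cre replicate 1, fewest without Pax7Cre replicate 2), where 1 lone library is assumed to vary like the others. It gave log2 values from -0.028 to 0.21 for Pfkm in Myog+ sarcomere-low cells, -1.11 to 0.98 for Ckm by genotype over all kept cells, and -1.13 to 0.043 for Pgam2 by genotype in Myog+ sarcomere-high cells. Depth limits the rarest stage, with 20 to 88 cells a library.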
